A study of Mus musculus with 2 samples.

Results

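The genes described here are the 10 members of the sterol control circuit of liver X receptors (LXRs) and sterol regulatory element-binding proteins (SREBPs). They are the receptors Nr1h3 and Nr1h2, the LXR targets Abca1, Abcg1 and Mylip, the precursors Srebf1 and Srebf2, and the regulators Scap, Insig1 and Insig2. Members were matched by gene symbol in the deposited tables, and all 10 were found among 55536 annotated genes, of which 22028 are protein-coding. The RNA came from the nucleoplasmic fraction of bone marrow-derived macrophages, primary cells of C57BL/6J mice grown from bone marrow, whose age and sex were not collected. The cells had been stimulated for 30 min with Lipid A at 100 ng/ml; Lipid A is the membrane anchor of bacterial lipopolysaccharide and a ligand of the receptor TLR4. The 1 group held 2 libraries of total RNA depleted of ribosomal RNA, replicate 1 made from 1 µg and replicate 2 from 500 ng of RNA. Unstimulated cells were not analysed here, so the values are levels after stimulation and say nothing about induction. The labels number the libraries as biological replicates 1 and 2. They share a donor entry but name separate biosamples, so how much of the spread between the libraries is technical cannot be told. With 1 group no p-value was possible.

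Cells hold free cholesterol within narrow limits through opposed transcription programmes. When oxysterols accumulate, LXRs bound with retinoid X receptors switch on genes that export cholesterol and limit its uptake. When sterols in the endoplasmic reticulum run low, SCAP carries SREBP precursors to the Golgi, where proteases release the factors that switch on cholesterol synthesis, fatty acid synthesis and uptake of low-density lipoprotein. INSIG proteins hold SCAP back while sterols are plentiful. Macrophages depend on the export arm because they take up cholesterol from dead cells and modified lipoproteins, and TLR4 signalling is known to interfere with LXR target expression in these cells.

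The sequences below show matches to motifs known from these arms, and neither binding nor repression was measured here. Srebf2 hosts a microRNA in an intron, and its mature form is printed with the seed, bases 2 to 8, in capitals.

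mmu-miR-33-5p: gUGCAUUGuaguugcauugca

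Mir33 lies at chr15:82198122-82198190 (mm10, plus strand), in intron 16 of Srebf2-201, which has 19 exons. MiR-33 is known to repress Abca1 and, in mouse, Abcg1. Matches to the seed's complement, CAATGCA, were counted after the stop codon in each gene, on the coding transcript with the highest share among those annotated beyond the stop codon. Both exporters held them, 3 in Abca1-201 and 2 in Abcg1-201, and the other 8 members held none. The exporters had 3156 and 3703 bases after the stop codon, against 149 to 1842 in the other members, so more letters were read. Over 9275 detected protein-coding genes read the same way, 610 (6.58%) held at least 1 match and 5 held at least 3. Those genes had a median of 984 bases after the stop codon. A match is a description of letters and not a site of repression shown here. In Abca1 the matches span bases 135 to 156 after the stop codon, and the first overlaps the second. In Abcg1 they span bases 717 to 733. Matches are in capitals.

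Abca1-201, chromosome 4: tattCAATGCAATGCActtCAATGCAacga

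Abcg1-201, chromosome 17: gcaacgCAATGCAacgCAATGCAgacagt

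RefSeq promoter windows on GRCm38.p6, of 250 bases before to 50 after a start, were at hand for 9 members in 15 windows; Abcg1 had none. Each was searched on both strands for the sterol regulatory element core CACNCCAC, for the E-box CACGTG, for CCAAT, and for a direct repeat of AGGTCA spaced by 4 bases, the LXR consensus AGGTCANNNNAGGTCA, with up to 2 mismatches. The consensus repeat was in none of the 15 windows, against 3.02% of all 32851 windows. Reading the windows showed a diverged pair, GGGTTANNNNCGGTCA, on the minus strand of each sequence as printed for Abca1 and for the downstream start of Srebf1. Over all 32851 windows that pair occurred without mismatch in 3, and the remaining 1 belonged to Fasn, fatty acid synthase, at chr11:120824498-120824797. The pair was taken from these windows after they were read, so its rarity describes the letters and is no test. The sterol regulatory element core was in 1 of the 15 windows, that of Insig1, and in 6.24% of all windows. CCAAT was in 6 of the 15 windows, against 37.41% of all, and the E-box in 4, against 7.15%. The E-box windows include overlapping windows of Scap that hold the same site, so that site was counted more than once. The LXR pair and the sterol regulatory element core are in capitals in the 250 bases before each start.

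Abca1, chr4:53159896-53160145, minus strand: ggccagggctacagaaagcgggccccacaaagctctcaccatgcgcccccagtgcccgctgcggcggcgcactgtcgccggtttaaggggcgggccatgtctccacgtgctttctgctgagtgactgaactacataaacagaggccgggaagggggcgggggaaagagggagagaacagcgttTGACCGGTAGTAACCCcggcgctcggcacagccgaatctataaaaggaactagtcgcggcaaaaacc

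Srebf1, downstream start, chr11:60210472-60210721, minus strand: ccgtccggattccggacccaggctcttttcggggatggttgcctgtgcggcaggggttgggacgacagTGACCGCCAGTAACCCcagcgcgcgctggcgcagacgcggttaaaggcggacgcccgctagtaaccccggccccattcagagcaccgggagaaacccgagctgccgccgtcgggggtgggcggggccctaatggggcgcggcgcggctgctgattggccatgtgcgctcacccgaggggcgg

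Insig1, chr5:28071162-28071411, plus strand: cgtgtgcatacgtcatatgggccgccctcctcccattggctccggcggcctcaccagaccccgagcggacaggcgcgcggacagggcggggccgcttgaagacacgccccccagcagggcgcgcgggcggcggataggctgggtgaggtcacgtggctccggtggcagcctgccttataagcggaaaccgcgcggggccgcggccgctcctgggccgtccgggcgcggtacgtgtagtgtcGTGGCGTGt

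The pair lies 67 to 52 bases before the Abca1 start and 182 to 167 bases before the downstream Srebf1 start. The core of Insig1 lies 9 to 2 bases before its RefSeq start, at position 28071412. Insig1-201, the transcript counted below, is annotated from position 28071363, so the core lies after that start.

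All 10 members were detected, meaning a TPM (transcript abundance per length, scaled to a fixed total in each library) of at least 1 in both libraries, as were 42.4% of nuclear-encoded protein-coding genes. Their median of mean TPM was 25.7, against 8.58 over the 9326 detected protein-coding genes. In bulk RNA a level cannot tell fewer expressing cells from less RNA per cell. The levels spread from the exporter Abca1 at the top to the retention factor Insig2 at the bottom. The libraries held 15846212 and 14874879 expected counts on annotated genes, in replicate 1 and replicate 2, and the members held between 107 and 33821 counts each. The tables count annotated transcripts, and over genes with 50 or more counts on average the deposited TPM gave a median log2 ratio of -0.44 (replicate 2 over replicate 1), so a TPM lower by that much in replicate 2 is the level of the typical gene. Nuclear-encoded protein-coding genes took 27.7% of annotated TPM in replicate 1 and 20.2% in replicate 2. Libraries were therefore compared on counts scaled by the trimmed mean of M-values (TMM), on which the median of all genes was -0.03. Macrophage identity was checked with 6 markers, all detected, whose summed TPM was 2452 in replicate 1 and 3253 in replicate 2. Of 17 markers of neutrophils, B cells, T cells, fibroblasts, adipocytes and hepatocytes, 1, a neutrophil gene, was detected in both libraries, 6 were at 0 in both, and none passed 2.22 TPM in either.

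**Figure D1:**
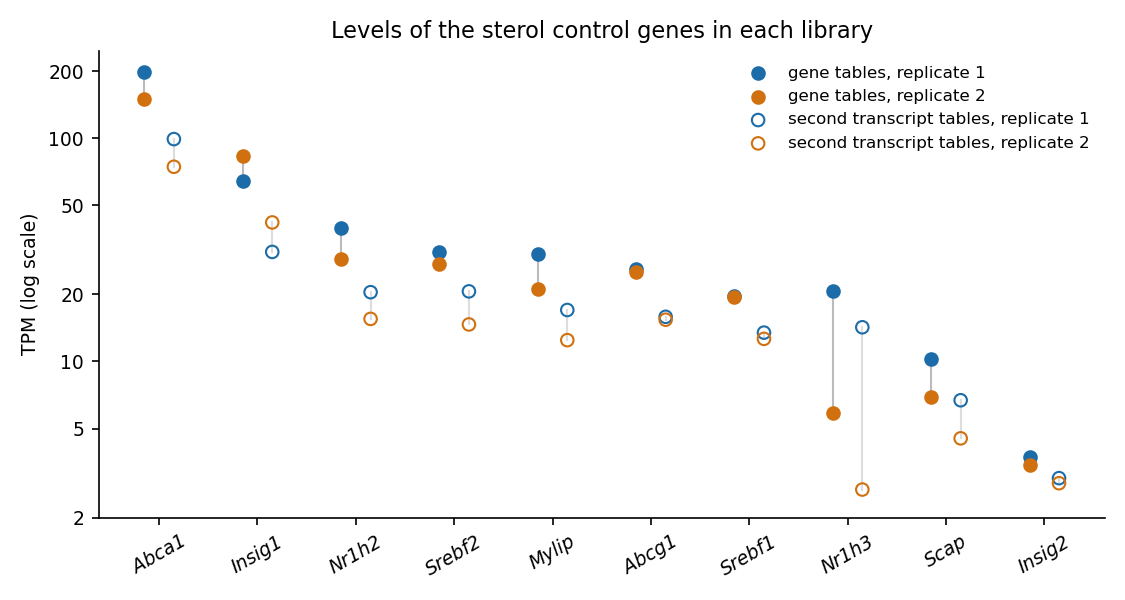
TPM (log scale) of the 10 members in each library, in order of mean TPM in the gene tables. Filled points are the gene tables and open points the second transcript tables. Blue is replicate 1, orange is replicate 2, and grey lines join the libraries. Abca1 is highest in each library, and Insig2 is lowest by mean, in both kinds of table. In replicate 2 of the second tables Nr1h3, at 2.67 TPM, is below Insig2, at 2.85 TPM. On this scale Nr1h3 has the widest gap between libraries.

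The LXR receptors were present at unequal levels, and Nr1h3 was the member that differed most between the libraries. Nr1h2, LXR beta, the form expressed in most tissues, is at chr7:44549616-44553951 and had 39.6 TPM in replicate 1 and 28.7 TPM in replicate 2, from 763 and 672 expected counts. Nr1h3, LXR alpha, the form rich in macrophages and liver, is at chr2:91184061-91202834 and had 20.6 TPM in replicate 1 and 5.88 TPM in replicate 2, from 569 and 174 counts. Nr1h3 was the lower receptor in both libraries, with a ratio of Nr1h3 to Nr1h2 of 0.520 in replicate 1 and 0.205 in replicate 2. The deposited intervals of the receptors did not overlap in either library. On protein-coding transcripts alone the ratio was 0.367 in replicate 1 and 0.0852 in replicate 2. The Nr1h2 side of that ratio includes Nr1h2-212, a transcript of 544 bases with 68 annotated coding bases. It had 12.2 TPM in replicate 1 and 9.47 TPM in replicate 2, on 66 and 67 counts, so the coding ratio leans on a short fragment.

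The exporters stood far apart, with Abca1 the higher. Abca1, which loads cholesterol and phospholipid onto apolipoprotein A-I, is at chr4:53030787-53159895 and had 199 TPM in replicate 1 and 149 TPM in replicate 2, more than any other member in each library. It stood above 98.0% of detected protein-coding genes by mean TPM. Abcg1, which passes cholesterol to high-density lipoprotein, is at chr17:31057675-31117988 and had 26.0 TPM in replicate 1 and 25.2 TPM in replicate 2. Abca1 was thus 7.64 times Abcg1 in replicate 1 and 5.93 times Abcg1 in replicate 2. Mylip, also called IDOL, the ubiquitin ligase that sends the low-density lipoprotein receptor to lysosomes, is at chr13:45389742-45412022 and had 30.4 TPM in replicate 1 and 21.1 TPM in replicate 2. Its mean of 25.7 ± 6.55 TPM and the mean of 25.6 ± 0.608 TPM of Abcg1 (SD, n = 2 each) did not differ beyond their spread.

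The SREBP precursors were closer to each other, with Srebf2 above Srebf1 in both libraries. Srebf2 encodes SREBP-2, the form tied to cholesterol synthesis and uptake, is at chr15:82147181-82205379 and had 30.9 TPM in replicate 1 and 27.4 TPM in replicate 2. Srebf1 encodes the SREBP-1 forms, which favour fatty acid synthesis, is at chr11:60199089-60222581 and had 19.7 TPM in replicate 1 and 19.4 TPM in replicate 2. The ratio of Srebf1 to Srebf2 was 0.636 in replicate 1 and 0.709 in replicate 2, and the intervals of the genes did not overlap. Scap, the escort and sterol sensor, is at chr9:110333288-110384950 and had 10.3 TPM in replicate 1 and 6.95 TPM in replicate 2.

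The INSIG pair was the most unequal of the 4 pairs by TPM. Insig1, the retention factor whose gene is itself an SREBP target, is at chr5:28071363-28078662 and had 64.6 TPM in replicate 1 and 83.6 TPM in replicate 2, second to Abca1. Insig2, the form known to respond less to SREBP, is at chr1:121304353-121332589 and had 3.74 TPM in replicate 1 and 3.45 TPM in replicate 2. Insig1 was 17.3 times Insig2 in replicate 1 and 24.2 times Insig2 in replicate 2, and 10.3 and 14.7 times by the second transcript tables. Insig2 rested on 107 counts in replicate 1 and 169 in replicate 2, the fewest of the members. The deposited bounds belong to a posterior mean TPM and contained the TPM in 12 of 20 member values. Those of Insig2 ran from 5.23 to 16.3 in replicate 1 and from 4.50 to 11.7 in replicate 2, above its TPM in both. On the posterior mean TPM, a comparison added after seeing the data, Insig1 was 6.05 times Insig2 in replicate 1 and 10.4 times in replicate 2, and Abca1 was 7.41 and 5.81 times Abcg1, so that the exporters were the more unequal pair in replicate 1.

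Ordered by mean TPM, the members ran Abca1, Insig1, Nr1h2, Srebf2, Mylip, Abcg1, Srebf1, Nr1h3, Scap and Insig2. Abca1, Insig1 and Insig2 were separate from their neighbours in that order, with no overlap of the library values. By TPM, Nr1h2, Srebf2, Mylip and Abcg1 overlapped each with the next, as did Srebf1 with Nr1h3 and Nr1h3 with Scap. The library values of Abcg1 and Srebf1 did not overlap, at 1.32 times in replicate 1 and 1.30 times in replicate 2. Their deposited bounds did overlap in both libraries. The second transcript tables gave the same order except that Abcg1, at a mean of 15.6 TPM, stood above Mylip, at 14.7 TPM.

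Between the libraries, 9 of the 10 members lay within 2-fold on TMM-scaled counts, and Nr1h3 did not. A gene was called beyond 2-fold when its mean count was at least 50, its scaled ratio passed 2 in either direction and its scaled intervals did not overlap. By that rule 875 of 10444 genes (8.38%) were called, 379 of them (3.63%) lower in replicate 2 and 496 (4.75%) higher, so 1 member of 10 is close to the share of all genes. Nr1h3 had 36.2 TMM-scaled CPM (counts relative to library size) in replicate 1 and 11.6 in replicate 2, a log2 ratio of -1.64 (replicate 2 over replicate 1). It was also called with total counts, DESeq2 size factors, deposited TPM and the second transcript tables, with a log2 ratio between -1.81 and -1.61. The other settings run only loosened the interval rule or the count filter, so they could not remove the call.

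Among the members within 2-fold, the INSIG genes and Abcg1 had more scaled counts in replicate 2. The log2 ratio was 0.72 for Insig2, 0.56 for Insig1 and 0.50 for Abcg1, and Srebf2 had 0.24. On deposited TPM, where the typical gene was lower in replicate 2, 1 member, Insig1, had a positive log2 ratio, of 0.37, while Insig2 had -0.12, Abcg1 -0.05 and Srebf2 -0.18; all 4 still stood above the median of all genes. The remaining members, Srebf1 at 0.02, Scap at -0.03, Abca1 at -0.05, Nr1h2 at -0.12 and Mylip at -0.15, were close to the median of all genes. The median of the 10 was -0.01, against -0.03 over all tested genes and 0.00 over protein-coding ones.

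**Figure D2:**
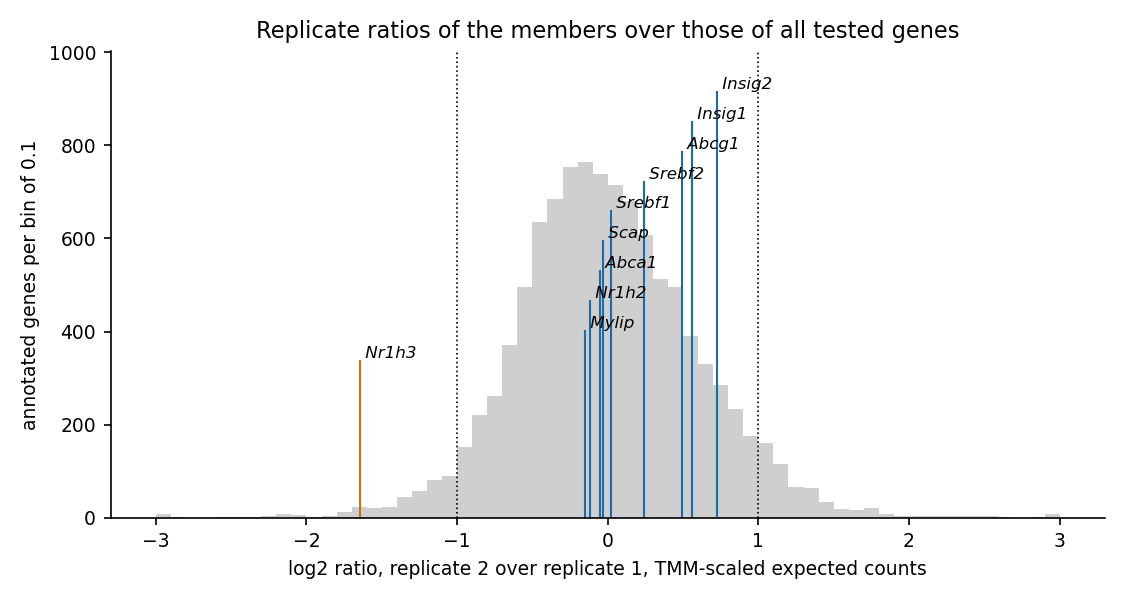
Distribution of the log2 ratio of replicate 2 over replicate 1, on TMM-scaled expected counts, for 10444 annotated genes with 50 or more counts on average (grey bars, genes per bin of 0.1; values beyond 3 are drawn at 3). Vertical lines mark the members, orange for Nr1h3 at -1.64 and blue for the other 9, and dotted lines mark 2-fold; Nr1h3 stands in the lower tail.

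The transcript with the largest share of each member's TPM was the same in both libraries for all 10 genes, and it was protein-coding for 9. The deposited isoform percent divides a gene's TPM, a level per length, so a short transcript weighs more there than in the reads. Abca1 and Mylip were almost wholly 1 coding transcript. Abca1-201 took 99.0% of Abca1 in replicate 1 and 99.7% in replicate 2, and Mylip-201 took 97.0% and 99.4% of Mylip. Srebf1 had a coding leader but a large share of non-coding processed transcripts. That class took 45.5% of Srebf1 TPM in replicate 1 and 57.1% in replicate 2, beside 54.5% and 42.85% for the coding class. It held 9.68% and 12.0% of expected counts, and 65.4% and 67.3% of TPM by the second transcript tables. The second transcript tables named the same leading transcript for every member by mean share, though Nr1h3-207 led in replicate 1 alone and Insig2-206, a short retained-intron transcript, led in replicate 1 alone.

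Nr1h3 was the exception by leading transcript, which was annotated as retained intron. Such a transcript keeps intron sequence and is not annotated as coding. Nr1h3-208 took 37.0% of Nr1h3 TPM in replicate 1 and 37.6% in replicate 2. With the other retained-intron transcripts the class held 47.3% in replicate 1 and 66.1% in replicate 2. By the second transcript tables it held 29.9% in replicate 1, below the 42.2% of the coding class, and 56.8% in replicate 2, above the 43.2% of the coding class. In expected counts of the first transcript tables the retained-intron class had 279 in replicate 1 and 109 in replicate 2, beside 290 and 65.4 on the coding transcripts. Both classes were thus lower in replicate 2, the coding class more so.

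Retained-intron transcripts are annotated for 7 members, and their shares straddled those of other genes. Over 4020 protein-coding genes with such a transcript and at least 5 TPM in both libraries, the median share was 27.0%, with quartiles at 14.1% and 41.2%; it was 27.7% in replicate 1 and 25.9% in replicate 2. The median over the 7 members was 21.7%. They include Insig2, at 3.74 TPM in replicate 1 and 3.45 TPM in replicate 2, which that 5 TPM filter would leave out. The medians thus rest on unlike filters, and which is higher cannot be read from them. Srebf2 had 36.3% ± 9.46 and Insig1 34.8% ± 8.17 (SD, n = 2 each), both within those quartiles. Insig1 was the member beside Nr1h3 whose share was higher in replicate 2, at 29.0% in replicate 1 and 40.6% in replicate 2. Its single retained-intron transcript Insig1-202 is 757 bases long and held 8.04% of the gene's counts in replicate 1 and 13.1% in replicate 2. Nr1h2 had 25.3% in replicate 1 and 18.1% in replicate 2, and Abcg1 had 13.6% and 6.72%. As shares of expected counts, Abcg1 had 2.61% in replicate 1 and 1.16% in replicate 2, and Srebf2 had 24.6% and 15.8%; by the second transcript tables Nr1h2 had 34.4% and 31.3%. Scap and Insig2 ranged widely, with 25.6% and 3% for Scap and 35.7% and 6.82% for Insig2, on 40.2 and 10 counts for Scap and 5.55 and 2 counts for Insig2. Nr1h2 had no dominant form. Its leading transcript Nr1h2-212 took 30.9% of TPM in replicate 1 and 33.0% in replicate 2 on 66.0 and 67.0 counts. That transcript is 544 bases long, with 68 annotated coding bases.

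**Figure D3:**
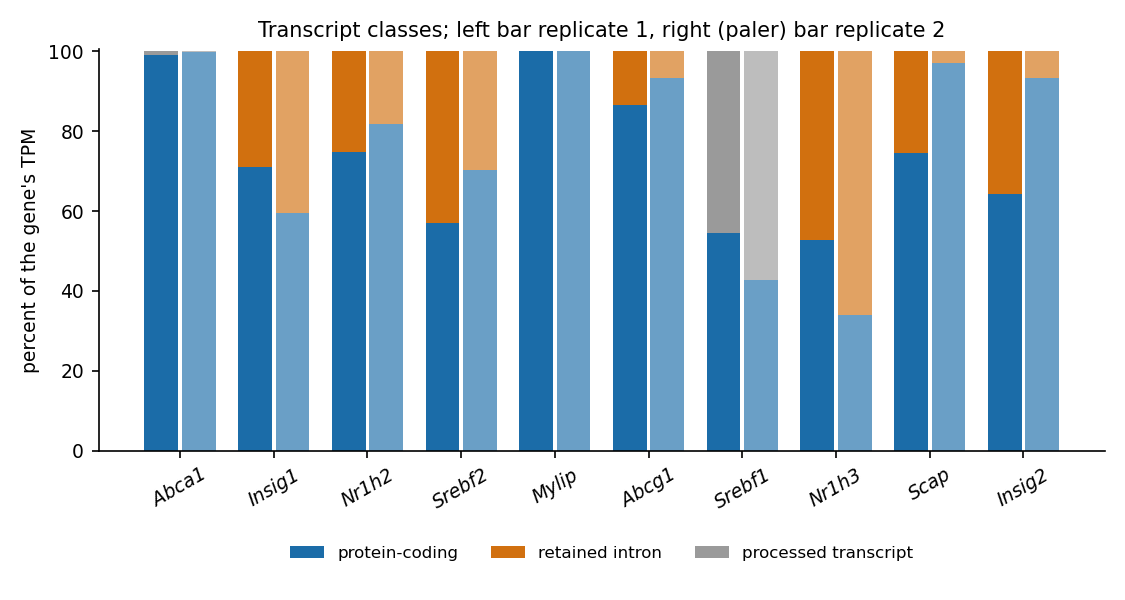
Percent of each member's TPM in transcripts annotated as protein-coding, retained intron or processed transcript, with replicate 1 on the left and replicate 2 (paler) on the right of each pair. Abca1 and Mylip are at or near 100% protein-coding, and Nr1h3 has the largest retained-intron share in these first transcript tables, 47.3% and 66.1%.

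Srebf1 has start sites with separate known roles, and its counts were assigned mostly to the transcript of the upstream coding one. The forms share exons, so such counts are estimates and not reads seen at a start. The 1a form has a longer and stronger activation domain than the 1c form, and the 1c promoter is the one known to answer to LXR. Srebf1-201 starts at position 60220604 of chromosome 11 with 91 coding bases in exon 1, and Srebf1-207 starts 10139 bases downstream with 19 coding bases there; both join the same exon 2. The longer coding exon identifies Srebf1-201 as the 1a form and Srebf1-207 as the 1c form. Srebf1-201 had 702 expected counts in replicate 1 and 671 in replicate 2, against 0 and 19.3 for Srebf1-207. In the second transcript tables Srebf1-201 had 671 and 901 estimated counts and Srebf1-207 had 125 and 144. By TPM the 1a form was 100.0% of the 2 forms in replicate 1 and 96.2% in replicate 2, and 79.5% and 82.0% by the second tables. Both kinds of table put the 1a form above the 1c form in both libraries, and they differed on whether the 1c form was near 0. Srebf1-201 is annotated with 4299 bases down to position 60199089, and Srebf1-207 with 3177 bases down to position 60200463, so reads at the 3′ end of the gene can count towards the 1a form and not towards the 1c form. A short non-coding transcript from another start 1977 bases upstream, Srebf1-204, had 0 and 9.16 expected counts. The window of the downstream start, printed above with its LXR pair, is that of the 1c form.

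**Figure D4:**
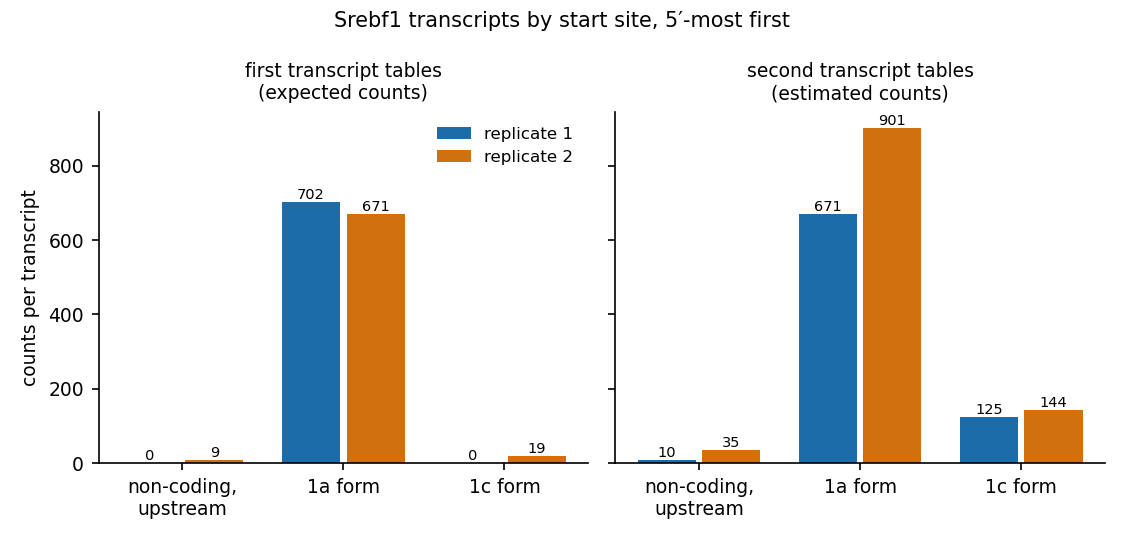
Counts on 3 Srebf1 transcripts that start at different sites, in replicate 1 (blue) and replicate 2 (orange), from the first transcript tables (left, expected counts) and the second (right, estimated counts). The 1a form is the tallest in all 4 cases, and the 1c form has 0 and 19.3 counts in the first tables against 125 and 144 in the second.

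Insig2 also has alternative first exons, and 1 region carried nearly all its counts. The 8 transcripts that start from position 121327678 to 121328024 of chromosome 1 held 101.5 expected counts in replicate 1 and 167 in replicate 2. The 2 transcripts of the upstream start, at 121332589, held 0 in both libraries and in both kinds of table. A count of 0 allows up to 3 counts.

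Several annotated genes overlap the members, and the sources used here do not say if reads were counted by strand. The same-strand one with the most counts is Gm49502, a transcript of unconfirmed coding potential at chr15:82185516-82187625 in intron 11 of Srebf2-201, with 267 counts in replicate 1 and 161 in replicate 2. Rai1, on the opposite strand, overlaps the 3′ end of Srebf1 by 109 bases and had 1527 and 1096 counts. 5830462I19Rik lies opposite Scap with 18.9 and 15.66 counts; together with Scap it sums to 567 and 528, whole numbers, while each alone is fractional. Scap was the only member with fractional counts, the other 9 being whole within 0.005, so part of the Scap value rests on how shared reads were divided. Gm37174, opposite Insig2, had 11 and 9 counts. Mir33 had 0 counts in both gene tables, and 3 and 0 in the second transcript tables; its hairpin of 69 bases is shorter than the labelled library size range, and mature miR-33 was not measured.

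The other genes of the pathway were described through 6 lists of 72 genes, of which 59 were detected in both libraries. Cholesterol synthesis was present at low levels, with 19 of 20 genes detected and a median of 4.75 TPM. Among its highest genes were Msmo1, a sterol methyl oxidase, at 28.5 ± 9.90 TPM, and Hmgcs1, a synthase early in the pathway, at 22.8 ± 2.19 TPM (SD, n = 2 each). Hsd17b7 was lowest, at 0.800 TPM in replicate 1 and 1.05 TPM in replicate 2. Of fatty acid synthesis genes 9 of 12 were detected, led by the desaturase Scd2 at 16.2 and 53.7 TPM, Acly, which makes cytosolic acetyl-CoA, at 19.9 and 14.8 TPM, and the elongase Elovl5 at 13.2 and 15.4 TPM. Me1 was lowest, with 6 and 5 counts.

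Of the 3 highest among other LXR targets, Apoe was above Abca1 in both libraries. Apoe, the apolipoprotein that macrophages secrete, had 763 TPM in replicate 1 and 693 TPM in replicate 2, the lipid transfer gene Pltp had 195 and 165 TPM, and Cd5l had 179 and 148 TPM. Abcg5, which with Abcg8 exports sterols in liver and gut, had 0 counts in both, and 8 of the 12 genes were detected. Of LXR partners and cofactors 7 of 8 were detected, among them the corepressor Ncor1 at 114 and 75.3 TPM and the coactivator Ncoa1 at 21.4 and 14.7 TPM; Rxrg had 0 counts. All 8 genes of SREBP processing and INSIG turnover were detected, the highest being Aup1 at 67.2 and 46.9 TPM, Vcp at 48.4 and 42.2 TPM and the protease gene Mbtps1 at 22.1 and 14.2 TPM, and the lowest the ubiquitin ligase gene Rnf139 at 3.30 and 4.61 TPM. Among uptake, storage and oxysterol genes 8 of 12 were detected. The lysosomal lipase Lipa had 151 and 190 TPM, the cholesterol-esterifying enzyme Soat1 had 149 and 131 TPM, and the sterol hydroxylase Cyp27a1 had 137 and 77.9 TPM. Cyp7b1, an oxysterol hydroxylase, had 0 counts in both.

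Most genes of cholesterol and fatty acid synthesis, which SREBPs switch on, had more TMM-scaled counts in replicate 2, and Srebf1 and Srebf2 lay within 2-fold. In cholesterol synthesis 19 of 20 genes were higher in replicate 2, with a median log2 ratio of 0.70, and 7 were called higher, beside 4.75% of all tested genes. On deposited TPM 17 of the 20 were higher in replicate 2 and 1 was called, and 19 stood above that scale's median of -0.44. Among those called were Msmo1, Idi1, Dhcr7, Fdps, Ebp and Mvd, each an enzyme of the pathway. In fatty acid synthesis 9 of 11 tested genes were higher, with a median of 0.72, and the 4 called higher were the desaturases Scd2, Fads1, Fads2 and Scd1. On deposited TPM 8 of the 11 were higher, with a median of 0.23, and 1 was called higher. Lpl, lipoprotein lipase, was the 1 called among 8 tested LXR targets, whose median was 0.50. That list had 2 genes called higher with total counts, 2 with DESeq2 size factors and 3 by the second transcript tables, which lack intervals; on deposited TPM 4 were higher and 4 lower in replicate 2, with a median of 0.10. In the cofactor list all 7 tested genes were lower in replicate 2, with a median of -0.13 and none called; 5 of 7 were lower by the second transcript tables. The medians of the 2 remaining lists were 0.40 for SREBP processing and 0.66 for uptake, storage and oxysterol genes, with none called. Called genes named here outside the highest and lowest of a list were picked after their values were seen. The libraries also differed in starting RNA and in the share of TPM on protein-coding genes, given above, and the part of either in these ratios was not tested.

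**Figure D5:**
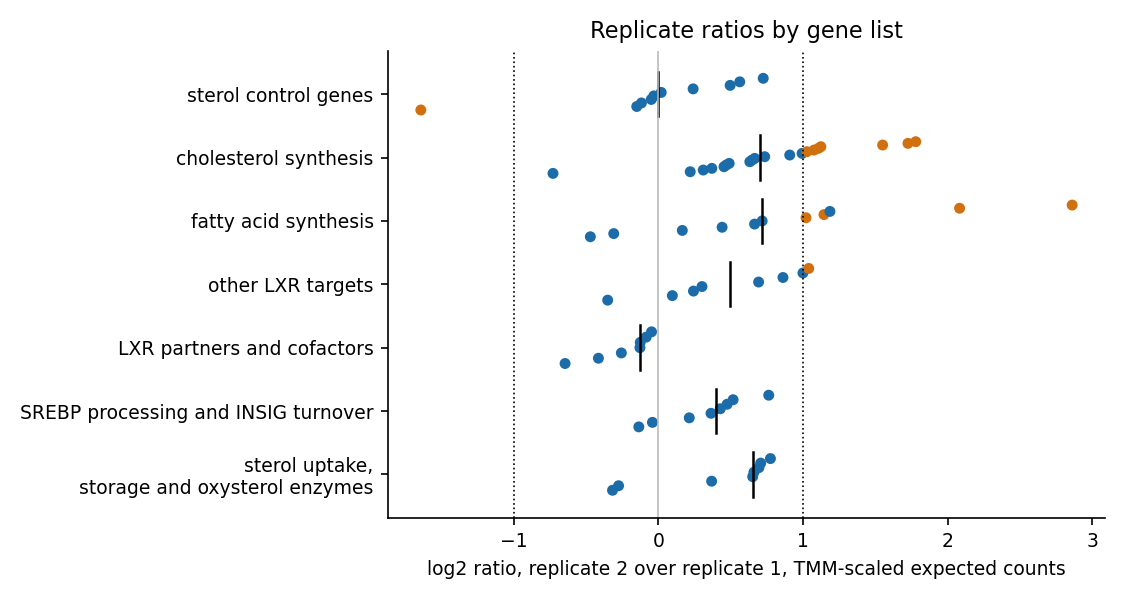
Log2 ratio of replicate 2 over replicate 1 (TMM-scaled expected counts) for each tested gene of the sterol control genes and of 6 pathway lists. Points are genes, orange where called beyond 2-fold, black ticks are list medians and dotted lines mark 2-fold; cholesterol synthesis has 19 of 20 points to the right of 0 and the cofactors have all 7 to the left.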

How the data were processed

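The authors' deposited gene tables give expected counts and TPM with bounds around a posterior mean TPM, per the file headers; the level of those bounds is not stated. The deposited first transcript tables give expected counts, TPM and each transcript's percent of its gene. The deposited second transcript tables hold TPM and estimated counts, per their column headers as deposited. Alignment was to mm10 with GENCODE M21, per the labels; tool names were not given in these sources. The first tables derive from a transcriptome alignment and the second from the reads directly, per the labels. From these, expected counts were rounded, and edgeR 4.0.16 under R 4.3.3 gave TMM factors, with DESeq2 1.42.0 size factors as an alternative. The scaling and the ratio were tried on simulated counts, with changes larger than 2-fold in well-counted genes. The interval part of the rule was left out there, so the full rule was not tested. Rows that name no gene, 1.19% of expected counts in replicate 1 and 0.213% in replicate 2, were left out. The limit behind a 0 is 3 counts, a share of 1.89e-05% in replicate 1 and 2.02e-05% in replicate 2, for counting error only. Named genes were all members, the 3 highest and the lowest of each list by mean TPM, and overlapping genes with at least 10 counts in either library. A few genes within that rule are not reported here by name. No genes of like pattern were sought, since 2 libraries give no pattern. The members and lists were chosen with earlier results of these data known. Sequences are from RefSeq (GRCm38.p6) and, after stop codons, GENCODE M21.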

Additional observations from a re-analysis of the deposited data

How the results depend on the processing

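Of the results tied to a comparison, the number of members detected and the number beyond 2-fold did not move beyond 1.5 times under any setting run. The median log2 ratio of the members was 0.019 with total expected counts, 0.028 with DESeq2 size factors, -0.29 with deposited TPM and 0.083 in the second transcript tables; all tested genes had medians of -0.01, 0.00, -0.44 and -0.02 under those settings. The log2 ratio of Srebf1 to Srebf2 was -0.41 in the second tables and -0.97 on protein-coding transcripts, against -0.58. In the second tables it was 3.62 for Insig1 to Insig2, against 4.36, and 2.46 for Abca1 to Abcg1, against 2.75. On posterior mean TPM, also added after seeing the data, Srebf1 to Srebf2 was -0.46 and Insig1 to Insig2 2.99. Retained-intron shares by expected counts were 1.89% for Abcg1, 10.6% for Insig1 and 20.2% for Srebf2, and 32.8% for Nr1h2 and 43.3% for Nr1h3 by the second tables. At 5 TPM, 7 cholesterol synthesis genes counted as detected, against 19. The share of the 1a form, chosen after seeing the data, was 80.7% in the second tables, against 98.1%. The causes were not tested. Levels moved beyond the replicate SD for 9 of 10 members in the second tables. They did so for all 10 when rescaled to protein-coding genes, a step that raises every TPM by construction. Depth limits the Insig2 values, with 107 and 169 counts. Leaving out either replicate gives the values printed per library. No paired analysis was possible because there is 1 group.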
